A study of Mus musculus with 6 samples.

Results

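The 10 genes described here are the transcription factor NRF2 (Nfe2l2), its inhibitor Keap1, and 8 genes known as targets of NRF2 in the defense against oxidants, namely Slc7a11, Gclc, Gclm, Gsr, Txnrd1, Srxn1, Nqo1 and Osgin1. They were taken by symbol from a table of 22183 genes, each has 1 row in it, and all 10 were among the 14005 genes with enough reads to be tested. The table comes from RNA sequencing of sorted cells from 3 saline mice and 3 PD mice. The study describes them as peritoneal endothelial cells (ECs), the cells that line the vessels of the peritoneal membrane. Transcripts of leukocytes were abundant in all libraries, as given below. The PD mice received daily intraperitoneal injections of glucose-based peritoneal dialysis (PD) fluid for 6 weeks, and the saline mice received saline on the same schedule. All mice were wild type, and the study's methods describe adult male mice of the C57BL/6J strain. The labels give magnetic sorting of CD31+ cells, whereas the study's supplementary methods give fluorescence-activated sorting of CD31+ CD45- cells from the digested mesentery.

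NRF2 is held at a low protein level in resting cells because KEAP1 brings it to a CUL3 ubiquitin ligase for degradation. Oxidants and electrophiles modify cysteines of KEAP1, upon which NRF2 accumulates, pairs with a small MAF protein and binds antioxidant response elements near its target genes. Its targets supply glutathione, thioredoxin and NADPH and remove quinones, heme and peroxides. Much of this control acts on the NRF2 protein, which RNA sequencing does not measure. In the vessel wall the pathway is known for its part in protection from oxidative injury, and glucose-rich fluid is a known source of such stress in the peritoneum.

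The promoters of Nfe2l2, Slc7a11, Srxn1, Osgin1, Nqo1 and Gclm are shown because these are the genes with a higher level in PD mice for which a RefSeq promoter was matched. They include that of Nqo1, in which no match was found. Each sequence is the RefSeq promoter on build GRCm38.p6, running from 250 bases before the transcription start to 50 bases after it, on the strand of the gene. The build used by the study is not given in the sources used here. Capitals mark matches to TGACNNNGC or TGAGNNNGC, the letters common to most antioxidant response elements, on either strand, where a match on the opposite strand appears as its reverse complement. No match overlapped another in the sequences printed.
Nfe2l2 (chr2:75704614-75704913, minus strand): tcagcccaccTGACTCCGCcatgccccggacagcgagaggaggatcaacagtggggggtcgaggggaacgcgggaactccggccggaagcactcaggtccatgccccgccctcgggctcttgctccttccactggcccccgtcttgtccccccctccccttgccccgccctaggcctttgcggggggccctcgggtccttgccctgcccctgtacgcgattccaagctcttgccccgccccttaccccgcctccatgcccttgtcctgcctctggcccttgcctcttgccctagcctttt
Slc7a11 (chr3:50443564-50443863, minus strand): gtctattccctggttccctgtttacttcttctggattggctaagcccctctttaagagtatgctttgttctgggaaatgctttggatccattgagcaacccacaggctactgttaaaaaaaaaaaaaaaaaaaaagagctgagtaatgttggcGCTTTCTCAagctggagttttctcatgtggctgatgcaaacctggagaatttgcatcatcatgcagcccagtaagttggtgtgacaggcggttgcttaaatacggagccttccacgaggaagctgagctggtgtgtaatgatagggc
Srxn1 (chr2:152105274-152105573, plus strand): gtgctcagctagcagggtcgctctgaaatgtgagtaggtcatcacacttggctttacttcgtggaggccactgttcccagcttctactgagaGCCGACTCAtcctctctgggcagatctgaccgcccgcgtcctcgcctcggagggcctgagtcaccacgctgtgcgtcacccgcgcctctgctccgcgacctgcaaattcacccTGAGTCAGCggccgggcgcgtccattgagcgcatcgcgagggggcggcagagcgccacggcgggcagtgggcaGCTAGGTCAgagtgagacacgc
Osgin1 (chr8:119436897-119437196, plus strand): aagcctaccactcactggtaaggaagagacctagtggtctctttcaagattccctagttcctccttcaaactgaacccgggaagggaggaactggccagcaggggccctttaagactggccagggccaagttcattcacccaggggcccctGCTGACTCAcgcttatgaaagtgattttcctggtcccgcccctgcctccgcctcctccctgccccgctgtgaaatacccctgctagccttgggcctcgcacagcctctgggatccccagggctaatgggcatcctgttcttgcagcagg
Nqo1 (chr8:107403156-107403455, minus strand): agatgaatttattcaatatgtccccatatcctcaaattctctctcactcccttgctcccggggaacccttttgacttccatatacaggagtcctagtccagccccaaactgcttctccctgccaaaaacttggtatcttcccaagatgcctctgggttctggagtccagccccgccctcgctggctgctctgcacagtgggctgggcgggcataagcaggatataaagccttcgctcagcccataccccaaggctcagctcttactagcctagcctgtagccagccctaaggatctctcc
Gclm (chr3:122245307-122245606, plus strand): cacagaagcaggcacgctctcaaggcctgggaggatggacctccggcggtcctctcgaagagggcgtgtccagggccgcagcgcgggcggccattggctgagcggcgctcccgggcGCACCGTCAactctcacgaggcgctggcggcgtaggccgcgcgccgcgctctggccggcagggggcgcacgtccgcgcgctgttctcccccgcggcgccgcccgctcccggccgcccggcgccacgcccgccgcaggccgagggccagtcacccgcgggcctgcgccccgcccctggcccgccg

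RefSeq promoters were matched for 8 of the 10 genes, all but Gclc and Gsr, and these 8 had 10 promoters, of which Txnrd1 had 3. Among the 10 promoters, 4 held TGACNNNGC and 3 held TGAGNNNGC, and these belonged to 4 and 3 of the 8 genes. Of all 32851 mouse promoters of the same length, 12.4% held TGACNNNGC, 17.6% held TGAGNNNGC and 27.8% held either. The Srxn1 promoter held 3 matches, 2 of TGAGNNNGC and 1 of TGACNNNGC. One of these read TGAGTCAGC, from 45 to 37 bases before the start, and the same 9 letters stood on the opposite strand of the Osgin1 promoter, 99 to 91 bases before its start. These exact letters, looked for after the match was seen, occurred in 136 of the 32851 promoters, or 0.414%. No match was found in the single promoters of Nqo1 and Keap1. A match of letters is a description of the window and not a measured binding site.

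Total counts ran from 21973426 to 26374292 reads per mouse. Per transcript length, CD31 (Pecam1) was at 145 ± 4.44 FPKM in saline mice and 158 ± 5.11 FPKM in PD mice (SD, n = 3 mice each), and VE-cadherin (Cdh5) at 4.72 ± 0.715 and 8.37 ± 0.365 FPKM. CD45 (Ptprc), the leukocyte antigen against which the described sort selected, was at 624 ± 30.2 FPKM in saline mice and 392 ± 7.73 FPKM in PD mice, above Pecam1 in all 6 libraries. All 12 endothelial markers listed were detected, transcripts of leukocytes were abundant in every library, and the values given here are those of the sorted preparation as a whole. In such bulk samples, fewer cells of a type and less RNA per cell cannot be told apart.

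**Figure D1:**
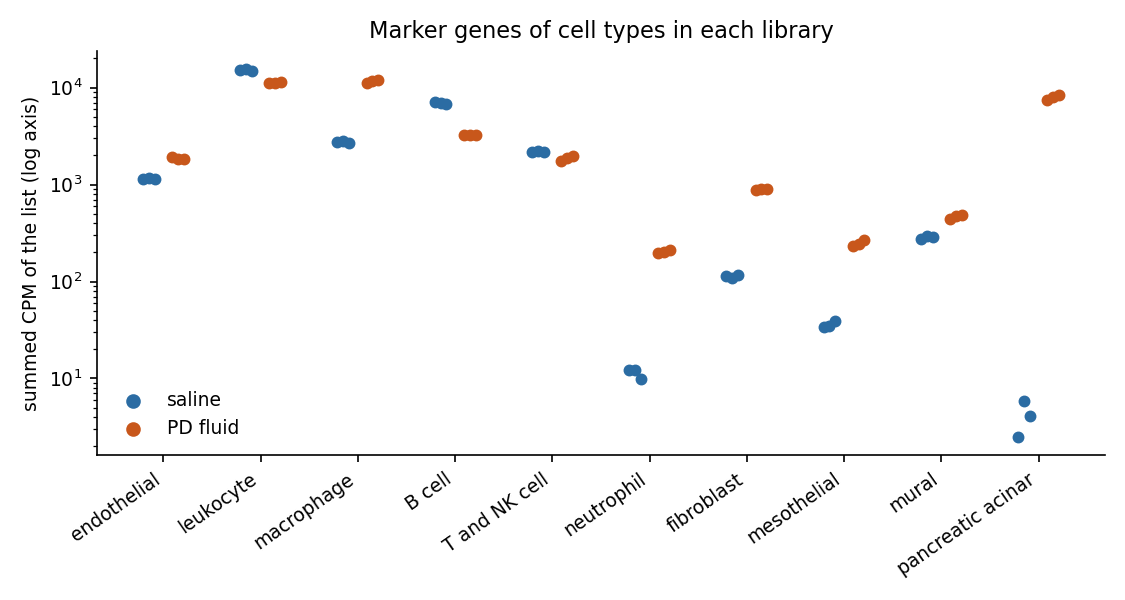
Summed CPM (log axis) of 10 lists of cell type markers in each library, with saline mice in blue and PD mice in orange, 3 points each. Within each list, the points of the 2 groups do not overlap, and the macrophage list runs from 2676 to 2814 CPM in saline mice and from 11142 to 12043 CPM in PD mice.

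Cell type markers moved with the treatment, and their part in the results on the NRF2 genes was not tested. The plot of marker lists shows that the summed level of 12 macrophage markers, all 12 of them higher by edgeR's test, was 4.22 times as high in PD mice as in saline mice, with log2 fold changes from 1.59 to 3.19. The 9 B cell markers were all lower, with a summed level of 6851 to 7136 CPM in saline mice and 3218 to 3282 CPM in PD mice. Among 12 pan-leukocyte markers, 11 were lower and 1 was higher, with sums of 14812 to 15531 and 11081 to 11487 CPM. For the 12 endothelial markers the sums were 1145 to 1159 CPM in saline mice and 1827 to 1905 CPM in PD mice, with 11 of the 12 higher. All 9 fibroblast markers (109 to 117 against 873 to 905 CPM), all 9 mesothelial markers (33.5 to 39.5 against 232 to 266 CPM), all 8 mural cell markers (277 to 297 against 440 to 486 CPM) and all 10 pancreatic acinar markers (2.5 to 5.9 against 7514 to 8488 CPM) were higher in PD mice. Of the 8 neutrophil markers, 7 were tested and 6 were higher (9.94 to 12.3 against 199 to 214 CPM), and of the 8 T and NK cell markers, 1 was higher and 3 were lower (2182 to 2236 against 1771 to 1962 CPM). No marker of any list was at 3 counts or fewer in all libraries.

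PD mice had a higher level of 7 of the 10 genes and a lower level of none (edgeR, threshold 0.05 after adjustment over all 14005 genes). Over all genes tested, 58.9% were called by the same rule, 31.1% as higher and 27.8% as lower. Nfe2l2, Slc7a11, Gclm, Gsr, Srxn1, Nqo1 and Osgin1 rose, with log2 fold changes from 0.54 to 2.32. Keap1, Gclc and Txnrd1 did not pass the test. The same 7 genes were higher in every PD mouse than in every saline mouse, a separation found in this direction for 34.0% of all genes tested, in the other direction for 31.6% and in either for 65.6%. The median log2 fold change of the 10 genes was 0.62, against 0.02 for all genes tested. DESeq2 and limma-voom each called the same 7 genes higher.

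**Figure D2:**
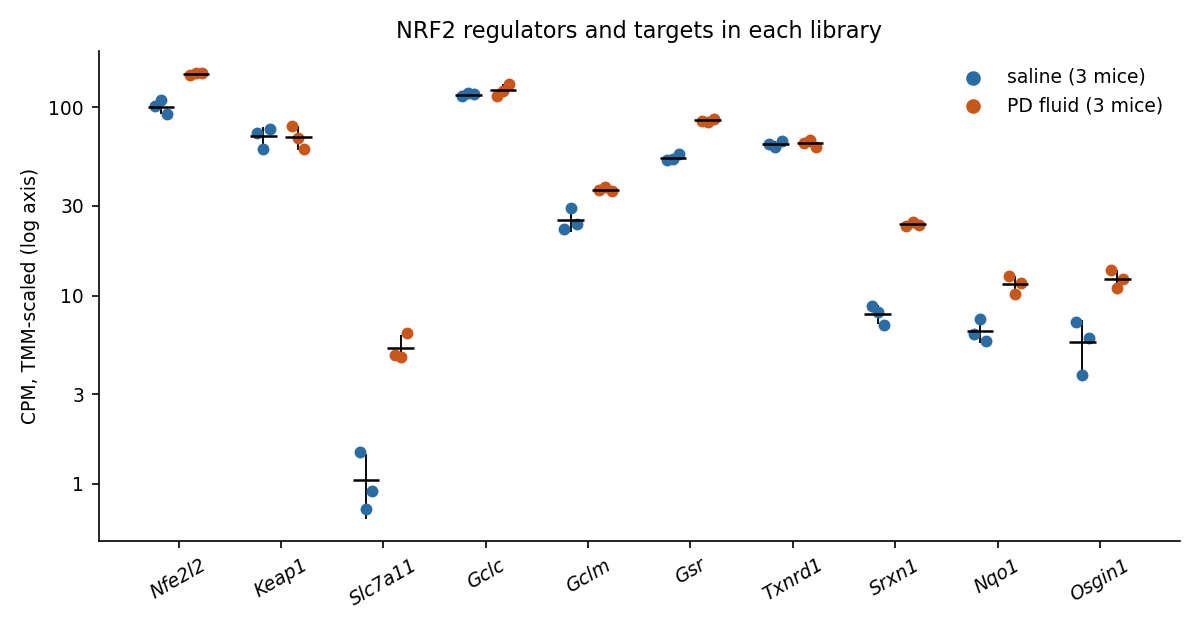
CPM of the 10 genes (log axis, TMM-scaled) in each of 3 saline mice (blue) and 3 PD mice (orange), with the mean (horizontal bar) and SD (vertical bar) of each group. For Keap1, Gclc and Txnrd1 the points of the groups overlap, while for the other 7 genes all PD mice lie above all saline mice.

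The regulators behaved differently from each other. Nfe2l2 (ENSMUSG00000015839, chromosome 2), the transcription factor, was at 102, 109 and 91.8 CPM in the saline mice and at 149, 152 and 152 CPM in the PD mice. The PD mice lay close together, with an SD of 1.48 CPM around a mean of 151, and all were above the highest saline mouse. It rose by 0.58 ± 0.07 on the log2 scale (± standard error here and for the genes that follow; edgeR, adjusted p = 5.82e-05), an increase larger than that of 73.8% of the genes tested.

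Keap1 (ENSMUSG00000003308, chromosome 9), the adaptor that targets NRF2 for degradation, was at 72.9, 60.4 and 77.2 CPM in the saline mice and at 79.9, 68.6 and 60.0 CPM in the PD mice. The groups overlapped widely, with both the highest and the lowest value in a PD mouse. Its log2 fold change of -0.01 had a 95% interval from -0.27 to 0.24 (edgeR, adjusted p = 0.934).

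Within a library, the ratio of 2 transcripts does not depend on how libraries are scaled to each other. The reads of Nfe2l2 were 1.40, 1.81 and 1.19 times those of Keap1 in the saline mice and 1.87, 2.21 and 2.53 times in the PD mice. The groups did not overlap, although the lowest PD mouse was near the highest saline mouse. The log2 ratio differed by 0.60 on average. An exact permutation test, two-sided, returned p = 0.1, and a design of 3 mice against 3 allows no smaller value (0.1 after Benjamini-Hochberg adjustment over the 2 ratios tested).

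The genes for cystine import and glutathione synthesis ranged from the largest change of the 10 genes to none that was detected. Slc7a11 (ENSMUSG00000027737, chromosome 3) encodes the light chain of the cystine-glutamate exchanger xCT, which brings in the cystine needed for glutathione. It had 38, 16 and 22 reads in the saline mice and 131, 113 and 139 reads in the PD mice, which correspond to 1.48, 0.738 and 0.911 CPM and to 4.82, 4.74 and 6.30 CPM. Every PD mouse was at more than 3 times the level of the highest saline mouse, but the gene was the least abundant of the 10 in both groups. The increase was 2.32 ± 0.28 on the log2 scale (edgeR, adjusted p = 4.5e-05), larger than that of 96.6% of the genes tested.

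Gclc (ENSMUSG00000032350, chromosome 9), the catalytic subunit of glutamate-cysteine ligase and so the rate-limiting enzyme of glutathione synthesis, was at 115, 119 and 118 CPM in the saline mice and at 115, 123 and 133 CPM in the PD mice. One PD mouse lay within the saline range and the other two lay above it. The log2 fold change of 0.08 had a 95% interval from -0.07 to 0.23 and did not pass the test (edgeR, adjusted p = 0.348).

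Gclm (ENSMUSG00000028124, chromosome 3), the modifier subunit that makes the ligase more efficient, was at 22.5, 29.2 and 24.0 CPM in the saline mice and at 36.3, 37.6 and 36.0 CPM in the PD mice. All PD mice were above all saline mice, and they varied less. Gclm rose by 0.54 ± 0.11 on the log2 scale (edgeR, adjusted p = 0.0013).

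The reads of the subunits' genes were also compared within each library, without allowance for transcript length. Per read of Gclc there were 0.196, 0.246 and 0.204 reads of Gclm in the saline mice and 0.315, 0.307 and 0.270 in the PD mice, without overlap. The log2 ratio differed by 0.47 (exact permutation test, two-sided, p = 0.1, again the lowest possible). With the authors' FPKM in place of reads, the difference was 0.44. The ratio of Gclm to Gclc in FPKM was 0.476 ± 0.041 in saline mice and 0.645 ± 0.058 in PD mice (SD, n = 3 mice each).

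Among the enzymes that return oxidized thiols to their reduced form, Gsr and Srxn1 rose and Txnrd1 did not pass the test. Gsr (ENSMUSG00000031584, chromosome 8), glutathione reductase, was at 52.6, 53.2 and 56.4 CPM in the saline mice and at 85.2, 83.4 and 87.4 CPM in the PD mice. Both groups were narrow and far apart. Gsr rose by 0.66 ± 0.07 on the log2 scale (edgeR, adjusted p = 1.47e-05).

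Txnrd1 (ENSMUSG00000020250, chromosome 10), the cytosolic thioredoxin reductase, was at 63.9, 61.3 and 66.0 CPM in the saline mice and at 64.5, 67.0 and 62.0 CPM in the PD mice. The values of the groups were interleaved, with a log2 fold change of 0.02 and a 95% interval from -0.14 to 0.17 (edgeR, adjusted p = 0.855). The reads of Gsr per read of Txnrd1, a ratio chosen after these values were seen, were 0.823, 0.868 and 0.854 in the saline mice and 1.32, 1.24 and 1.41 in the PD mice. In reads, without allowance for transcript length, Gsr was therefore below Txnrd1 in each saline mouse and above it in each PD mouse. By FPKM, Gsr was above Txnrd1 within every mouse of both groups. The FPKM means were 20.1 against 19.4 in saline mice and 32.0 against 19.9 in PD mice.

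Srxn1 (ENSMUSG00000032802, chromosome 2), sulfiredoxin, repairs peroxiredoxins whose active cysteine has been overoxidized. It was at 8.79, 8.16 and 6.998 CPM in the saline mice and at 23.4, 24.7 and 23.9 CPM in the PD mice. This was a 3.00-fold difference with little spread in either group. On the log2 scale it rose by 1.59 ± 0.12 (edgeR, adjusted p = 1.09e-06, the smallest among the 10 genes), larger than that of 92.3% of the genes tested.

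Nqo1 and Osgin1 act outside the thiol systems, and both rose from low levels. Nqo1 (ENSMUSG00000003849, chromosome 8), a quinone reductase often used as a readout of NRF2 activity, was at 6.25, 7.52 and 5.76 CPM in the saline mice and at 12.7, 10.2 and 11.6 CPM in the PD mice. The lowest PD mouse was above the highest saline mouse, and Nqo1 rose by 0.83 ± 0.15 on the log2 scale (edgeR, adjusted p = 0.000873).

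Osgin1 (ENSMUSG00000074063, chromosome 8), an oxidative stress-induced growth inhibitor, was at 7.26, 3.78 and 5.96 CPM in the saline mice and at 13.7, 10.99 and 12.2 CPM in the PD mice. The saline mice were more spread than for the other genes of similar level, with 1 mouse well below the other two, and there was no overlap between the groups. Osgin1 rose by 1.11 ± 0.21 on the log2 scale (edgeR, adjusted p = 0.000963), and the value ran from 0.90 to 1.34 as each mouse was left out in turn.

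The direction of most of these changes depended on what the libraries were scaled to. TMM scaling, used above, takes most genes as unchanged. Scaling to the 12 endothelial markers, which rose, lowered the median log2 fold change of all genes by 0.97, and scaling to the 12 leukocyte markers, which mostly fell, raised it by 0.40. Relative to endothelial markers, Slc7a11 (log2 fold change 1.36) and Srxn1 (0.62) were still higher in PD mice, where 8.33% of all genes tested were higher and 72.1% were lower. Nfe2l2 (-0.39), Keap1 (-0.98), Gclc (-0.89), Gclm (-0.43), Gsr (-0.31) and Txnrd1 (-0.95) were then lower by edgeR's test. Nqo1 (-0.15) and Osgin1 (0.15) were called in neither direction.

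Relative to leukocyte markers, all 10 genes were higher, with 58.3% of all genes tested higher and 5.32% lower. Slc7a11 and Srxn1 were thus higher in PD mice under each of the 3 scalings, and Keap1, Gclc and Txnrd1 were called higher with only the leukocyte scaling among these 3. With TMM, the log2 fold change of Slc7a11, 2.32, lay within the range of the 12 macrophage markers. That of Srxn1, 1.59, equalled its lower end to 2 decimals, and those of the other genes that rose were below it. All genes that rose lay within the ranges of the mural (0.26 to 2.38), fibroblast (0.35 to 3.91) and tested neutrophil markers (0.05 to 9.14). All of them but Slc7a11 also lay within the range of the endothelial markers (0.13 to 1.65). The ranges were 2.02 to 3.92 for mesothelial and 7.55 to 12.4 for pancreatic acinar markers. What these cells contribute to the changes was not tested.

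**Figure D3:**
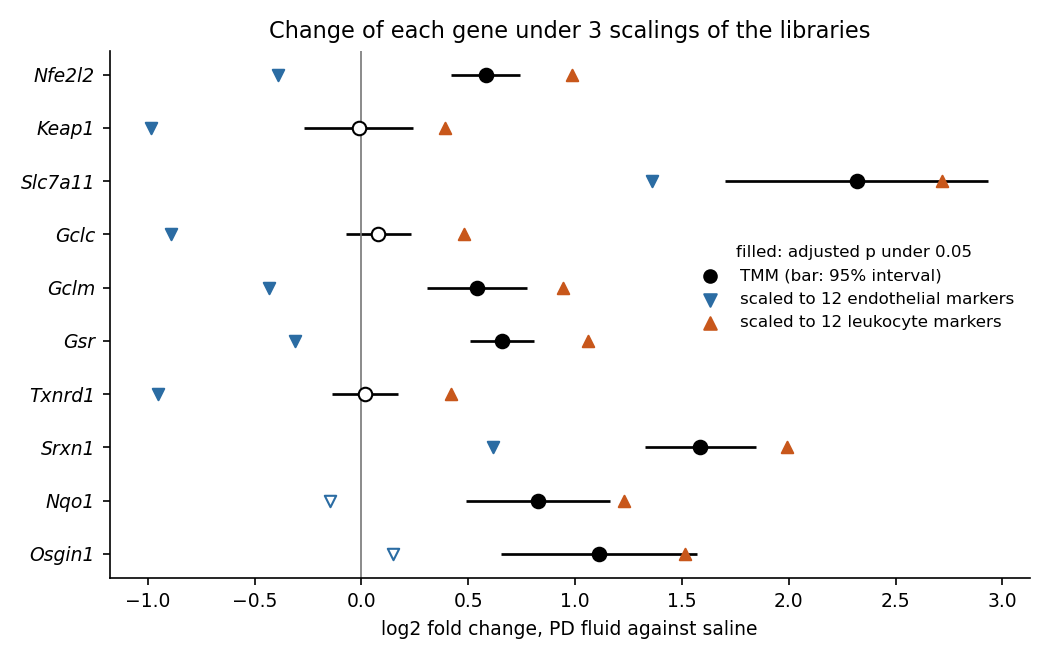
Log2 fold change of each gene, PD mice against saline mice, with TMM scaling (black circles, bars show the 95% interval), with scaling to 12 endothelial markers (blue triangles) and with scaling to 12 leukocyte markers (orange triangles). Symbols are filled where the adjusted p of edgeR's test is under 0.05, and only Slc7a11 and Srxn1 have a filled symbol above 0 in all 3.

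Levels of different genes are compared by FPKM, which the authors computed per length of transcript. In saline mice, Nfe2l2 was the most abundant of the 10 transcripts at 40.6 ± 3.16 FPKM (SD, n = 3 mice), higher than 81.3% of the genes tested, although CPM per kilobase of all annotated exons placed Gclc first. Gclc followed at 34.1 ± 0.549, then Keap1 at 23.4 ± 2.51, Gsr at 20.1 ± 0.874, Txnrd1 at 19.4 ± 0.601 and Gclm at 16.2 ± 1.47 FPKM. A gap in FPKM separated these from Nqo1 at 4.17 ± 0.546, Osgin1 at 2.96 ± 0.959, Srxn1 at 2.83 ± 0.313 and Slc7a11 at 0.297 ± 0.125 FPKM. By CPM per kilobase of all annotated exons, however, Gclm was at 4.01, slightly below Nqo1 at 4.19. The ranges of Keap1 and Gsr, of Gsr and Txnrd1 and of Osgin1 and Srxn1 overlapped, so these neighbors did not differ beyond their spread.

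In PD mice, Nfe2l2 was at 61.2 ± 1.21 FPKM and Gclc at 36.2 ± 1.67 FPKM. Gsr, at 32.0 ± 0.797 FPKM, was now above Keap1 (23.3 ± 4.33). It stayed above Gclm (23.3 ± 1.17) and Txnrd1 (19.9 ± 0.791). Srxn1, at 8.56 ± 0.264 FPKM, was above Nqo1 (7.44 ± 0.903) and Osgin1 (6.295 ± 0.802), and Slc7a11 was lowest at 1.52 ± 0.226 FPKM. The ranges overlapped between Keap1 and Gclm, between Srxn1 and Nqo1 and between Nqo1 and Osgin1. The 4 genes with the largest log2 fold changes were those with the lowest FPKM in both groups. By CPM per kilobase of all annotated exons, Gclm was lower in PD mice, at 5.83, than Srxn1 (8.51) and Nqo1 (7.41). Of the summed FPKM of the 10 genes, Gclc held 20.4% to 21.1% in saline mice and 15.3% to 17.8% in PD mice, and Srxn1 held 1.52% to 1.90% and 3.77% to 4.04%.

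**Figure D4:**
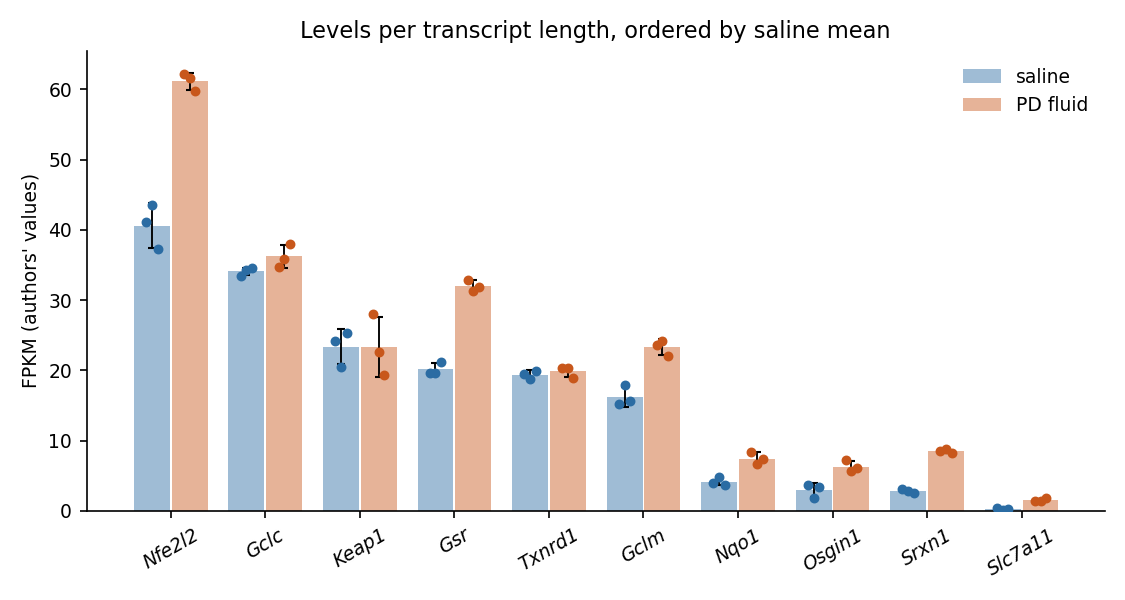
FPKM of the 10 genes as given by the authors, ordered by the saline mean, with bars for the group mean, error bars for the SD and points for the 3 mice of each group. The 4 genes on the right, Nqo1, Osgin1, Srxn1 and Slc7a11, lie under 9 FPKM in every mouse of both groups.

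Other genes of the pathway were described by 7 lists written by role, with 75 genes, of which 69 were tested. With TMM scaling, 38 of these were higher in PD mice (55.1%) and 13 were lower (18.8%), beside 31.1% and 27.8% of all genes tested, and their median log2 fold change was 0.28. With scaling to the endothelial markers, 11 were higher and 46 were lower, beside 8.33% and 72.1% of all genes tested. The 11 were Gsta3, Mgst1, Me1, Hmox1, Cbr3, Akr1b8, Aldh1a1, Ugt1a6a, Abcc3, Sod3 and Gpx3, all higher with TMM too. Prdx1, Prdx6, G6pdx, Pgd, Fth1, Slc48a1 and Gpx1 were among those higher with TMM and lower with the endothelial scaling. The directions given below for genes of these lists are those with TMM scaling unless another scaling is named.

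Among 12 partners and other regulators of NRF2, 7 were higher and 4 were lower. The small MAF genes, whose proteins pair with NRF2 on DNA, were all higher, with log2 fold changes of 1.28 for Maff, 0.52 for Mafg and 0.38 for Mafk. Nfe2l1 and Nfe2l3, relatives of Nfe2l2, were also higher, Nfe2l1 from 37.6 ± 10.7 to 77.5 ± 10.1 CPM (SD, n = 3 mice each) and Nfe2l3 from 0.417 ± 0.213 to 1.296 ± 0.507 CPM. Bach1, which competes with NRF2 for the same elements, had a log2 fold change of 0.88, and Sqstm1 (p62), which binds KEAP1, one of 0.22. None of the 12 was higher with scaling to the endothelial markers, and 8 were lower, including Mafg, Mafk and Sqstm1. That scaling called 72.1% of all genes tested lower.

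The genes that were lower with TMM scaling included those of the ligase subunits Cul3 (-0.45) and Rbx1 (-0.40). Also lower were the kinase Gsk3b (-0.43), which marks NRF2 for a second route of degradation, and Bach2 (-0.48), a repressor known for its role in B cells. All 9 B cell markers were lower in the same mice, and what B cells contribute to the value of Bach2 was not tested. In the case of Cul3, which joins KEAP1 to the ligase, the level fell from 19.6 ± 1.70 to 14.3 ± 0.866 CPM (SD, n = 3 mice each, edgeR, adjusted p = 0.00527). Btrc was not called.

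Of 14 glutathione transferases and other glutathione enzymes, 10 were tested, 6 were higher and 1 was lower. Mgst1, a membrane-bound transferase, rose from 40.0 ± 4.57 to 97.1 ± 6.21 CPM (mean ± SD of 3 mice each), a log2 fold change of 1.28 with a standard error of 0.09. Gsta3 (log2 fold change 2.32) and Gsta4 (1.26) rose from under 1.1 CPM in every saline mouse, and reads of the Gsta genes may be shared among close paralogs. Mgst2, a relative of Mgst1, fell from 21.6 ± 2.49 to 12.2 ± 1.202 CPM, a log2 fold change of -0.82. Gss, which completes glutathione after the ligase step, had a log2 fold change of -0.11 and was not called.

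Of the 3 thioredoxin and peroxiredoxin targets, Prdx6 (log2 fold change 0.37) and Prdx1 (0.21) were higher and Txn1 (-0.08) was not called. Txn1 encodes the substrate of the Txnrd1 enzyme, and neither of these genes passed the test. The list of 6 genes for the supply of NADPH, which both reductases consume, included 4 that were higher and none that was lower. These 4, G6pdx, Pgd, Me1 and Idh1, encode enzymes that generate NADPH. Taldo1 and Tkt, whose enzymes do not themselves generate it, were not called. The cytosolic Idh1 rose from 59.3 ± 1.23 to 123 ± 12.6 CPM, the malic enzyme Me1 from 1.75 ± 0.251 to 5.63 ± 0.680 CPM and Pgd from 49.6 ± 2.80 to 64.1 ± 2.42 CPM (SD, n = 3 mice each).

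Of the 7 heme and iron targets, 4 were higher and 1, Fech, was lower with a log2 fold change of -0.20. Hmox1, which breaks down heme, rose most at 2.51 (standard error 0.10), and the heme transporter Slc48a1 rose by 0.71 on the log2 scale. The level of Ftl1, the ferritin light chain, went up from 4134 ± 184 CPM to 6880 ± 633 CPM (SD, n = 3 mice each), although its reads may be shared with close copies. Hmox1, ferritin and Slc48a1 are also expressed by macrophages that recycle iron, and the macrophage markers rose in the same mice. What macrophages contribute to these values was not tested.

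Of 17 detoxification enzymes and exporters, 15 were tested, 11 were higher and 2 were lower. Ugt1a6a, a glucuronosyltransferase, rose from 2.62 ± 1.07 to 16.4 ± 0.488 CPM (mean ± SD of 3 mice each), a log2 fold change of 2.63. It shares exons with other genes of its cluster, so this value may include their reads. The exporter Abcc3 rose from 4.24 ± 1.29 to 20.6 ± 1.17 CPM and the aldo-keto reductase Akr1b8 from 1.55 ± 0.126 to 5.65 ± 2.17 CPM. The epoxide hydrolase Ephx1 fell from 297 ± 6.53 to 231 ± 17.6 CPM and Akr1b3, aldose reductase, from 146 ± 7.40 to 124 ± 3.63 CPM.

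The 16 antioxidant enzymes not listed as NRF2 targets were split, with 4 higher, 5 lower and 7 not called, and a median log2 fold change of 0.02. The secreted enzymes Gpx3 (19.1 ± 0.444 to 180 ± 3.33 CPM) and Sod3 (6.39 ± 0.875 to 16.6 ± 0.657 CPM) rose most, followed by Gpx1 with a log2 fold change of 0.56. The mitochondrial Sod2 was also higher (0.30). The genes that fell included the mitochondrial Prdx3 (-0.41) and Txnrd2 (-0.30), the cytosolic Sod1 (-0.38) and Msra (-0.27), while Cat and Gpx4 were not called. For Sod1 the groups overlapped slightly.

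**Figure D5:**
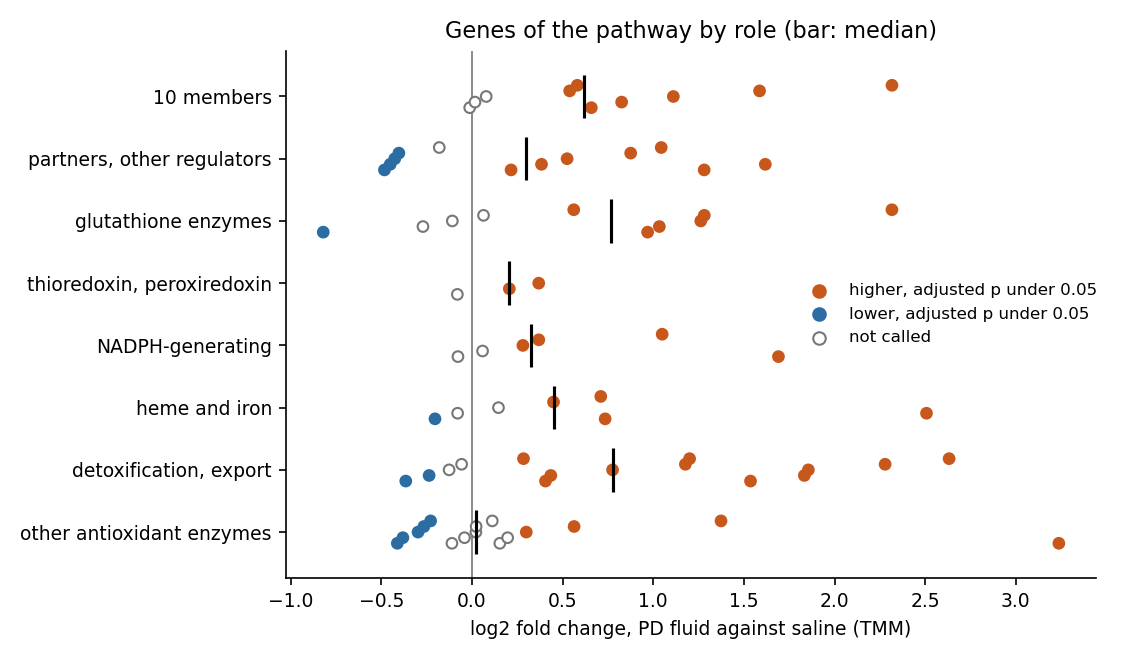
Log2 fold change with TMM scaling of the 10 genes and of the tested genes of 7 lists, 1 point a gene, with a black bar at each median. Orange points were higher and blue points lower at an adjusted p under 0.05 in edgeR's test, and the medians run from 0.02 for the other antioxidant enzymes to 0.78 for the detoxification genes.

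The genes whose pattern was most like that of Nfe2l2 were found by the root mean square difference of log2 CPM, each gene centered on its own mean over the 6 libraries, among 13892 genes with a mean of at least 10 counts. Gpx1, the main cytosolic glutathione peroxidase, was the nearest at 0.038, followed by Mbnl2 (0.039), Ssr3 (0.039), Vamp3 (0.040) and Frrs1 (0.0475). Among the other 9 genes of the pathway described here, Gclm was the nearest at rank 142 (0.091) and Gsr was next at rank 272 (0.109). Slc7a11 was the farthest at rank 13232. This measure follows mainly the difference between the groups and gives no information on shared control.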

How the data were processed

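RNA of CD31+ peritoneal cells from 3 saline and 3 PD mice was sequenced, and groups follow the sample titles. The authors deposited read counts per gene without normalization, and FPKM values that the authors scaled by length and depth. The authors also deposited the log2 ratio of group means and a p-value and FDR per gene, which were not used. The submitters' processing notes name fastp 0.18.0, Bowtie2 2.2.8, HISAT2, StringTie and RSEM, and the genome build and strand setting are not given in the sources used here.

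Counts were filtered (filterByExpr), TMM-scaled and tested with edgeR 4.0.16 in R 4.3.3 (quasi-likelihood test, no covariate, Benjamini-Hochberg adjustment over all 14005 genes, threshold 0.05). Standard errors derive from the F statistic. Alternatives used DESeq2 1.42.0, limma 3.58.1, other scalings and filters, a replicate block, and left out each mouse. The scripts were tested on simulated data. Exact permutation tests cannot go below 0.1 here. Separate mice are given as replicates, and their counts differed beyond sampling noise in each pair. The 10 genes and all lists were chosen with earlier results of these data known. Named genes are the 10 genes, up to 3 called genes per list and direction with the largest change, at least 10 counts on average and no overlap, markers of the sort and the 5 nearest to Nfe2l2. Other genes named for their role were chosen after their values were seen. No other gene of the table has exons overlapping those of the 10 genes in GENCODE M21.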

Additional observations from a re-analysis of the deposited data

How the results depend on the processing

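Of the 10 genes, 7 were called higher with DESeq2, limma-voom, no filter, total-count scaling, upper quartile scaling and each mouse left out. With scaling to endothelial markers, only 2 of the 10 rose and 6 fell, 11 list genes were higher and 46 lower, and 1166 of all genes were higher and 10091 lower. With scaling to leukocyte markers, 1 list gene was lower, and 8158 of all genes were higher and 745 lower. The scalings differ in which genes they hold level between the groups, and which of them reflects the cells was not tested.

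Directions were reversed by endothelial scaling for Nfe2l2 (log2 fold change -0.39), Gclc (-0.89), Gclm (-0.43), Gsr (-0.31), Txnrd1 (-0.95) and Nqo1 (-0.15). Keap1 was at -0.98 with endothelial and 0.39 with leukocyte scaling, both called, at 0.00052 with total-count scaling, and between -0.126 and 0.0878 with each mouse left out, where Txnrd1 ran from -0.0103 to 0.0495. Of the 10 levels, 2 in saline mice and 6 in PD mice kept their rank when CPM per kilobase of all annotated exons replaced FPKM.

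The replicate numbers were not taken as pairs of mice in the main fit. Same-numbered libraries deviated together with correlations of 0.105, 0.0406 and -0.173 across genes, and not every library correlated best with its own number. With so few mice, these correlations cannot exclude a shared batch. With the replicate block, 7 genes were called and the log2 fold change of Nfe2l2 was 0.58, while 4242 genes were higher and 3667 lower in all. Of the 10 genes, Slc7a11 had the fewest reads, 16 to 38 per saline mouse, and the largest standard error.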
